A study of Sus scrofa with 6 samples.

Results

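Melanocytes make melanin in organelles called melanosomes and pass these to keratinocytes of the epidermis and of the hair. The 7 mRNAs described here are PMEL, TYRP1, DCT, MLANA, TRPM1, SLC24A5 and SOX10, picked by name and identifier out of 14900 mRNAs in the deposited table, and all 7 were found. PMEL builds the fibrils inside the melanosome on which pigment is laid down. TYRP1 and DCT are relatives of tyrosinase that work in the eumelanin pathway. MLANA is a melanosome protein needed for the processing of PMEL, TRPM1 is an ion channel found in melanocytes and in the retina, and SLC24A5 is a cation exchanger that is needed for normal pigment. SOX10 is a transcription factor of neural crest cells. It drives melanocyte genes together with MITF, but it is also expressed in the Schwann cells of skin nerves and in gland epithelium, so it is the only one of the 7 that other skin cells are known to share widely.

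Skin was taken to a depth of 8 mm from 3 unrelated female Bama pigs of 2 years, which are black at both ends of the body and white between them. From each pig came a white sample (back) and a black sample (buttock), so there were 3 white and 3 black samples, and the sample titles carry the number of the pig. Skin color and body site differ together, and their parts in any difference between the groups cannot be told apart. Expression was given as FPKM, the fragments per kilobase of transcript, scaled to the mapped fragments of the sample, which allows genes of different length to be set side by side within a sample.

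In the RefSeq annotation of the pig assembly Sscrofa11.1, 4 of the 7 genes lie on chromosome 1. These are SLC24A5 (ENSSSCG00000004662) from 123635077 to 123657205, TRPM1 (ENSSSCG00000004843) from 143718295 to 143856968, TYRP1 (ENSSSCG00000005193) from 209725698 to 209745141 and MLANA (ENSSSCG00000005206) from 216230472 to 216247171. SOX10 (ENSSSCG00000039315) lies on chromosome 5 from 9890439 to 9901746, and PMEL (ENSSSCG00000000371) lies on the same chromosome from 21355611 to 21365609. DCT (ENSSSCG00000009490) lies on chromosome 11 from 63584865 to 63647486. RefSeq lists 2 transcripts each for TYRP1, DCT, MLANA and SOX10 and 1 each for the others. The values are per gene, so transcripts could not be separated.

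The summed FPKM of all mRNAs was 408598 to 501424 per sample and gave no sign of depth, because the files hold no counts and no interval for counting error could be computed. The median FPKM over all mRNAs was 4.46 to 4.96 in the white samples and 5.65 to 6.70 in the black samples. Epidermal keratinocyte markers were present in every sample, with a summed FPKM over 11 markers of 610.9 to 1266 in white skin and 1275 to 1575 in black skin. Single markers were uneven: KRT1 was at 432.9, 39.5 and 503.6 FPKM in the white skin of pigs 1, 2 and 3. KRT10, named here after its values were seen, was at 85.9, 3.58 and 105.2 there. KRT15 was at 365.3, 337.4 and 399.3 in the same samples. The black sample of pig 1 stood apart by its hair genes, and the white sample of pig 2 had almost none of them; both are described with the pigment genes below.

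The skins were set against each other over the whole table, by limma on log2(FPKM + 0.5). A gene was called when its adjusted p (Benjamini-Hochberg) was under 0.05 and its log2 fold change, black minus white, was above 1 in size. PMEL, TYRP1, DCT, MLANA and TRPM1, which were all higher in black skin, were called, and SLC24A5 and SOX10 were not. Over all mRNAs, 3.62% were called higher and 2.62% lower in black skin. Of all calls 58.0% were higher in black skin with FPKM as deposited, 34.5% with upper-quartile scaling and 31.0% with quantile normalization, and 67.7% after scaling every sample to the same sum. The same 5 genes were called under each of these scalings. All 7 genes had every black sample above every white sample, which was the case for 25.7% of all mRNAs. Neither share is a test of these genes, which were chosen with earlier results known. Every listed mRNA exceeded 0.5 FPKM in some sample, and PMEL, TYRP1, MLANA, TRPM1 and SLC24A5 did so in black skin alone. The count of 5 depended on single libraries: it was 2 without the white sample of pig 1, 1 without that of pig 2 and 3 without that of pig 3, and 4 without the black sample of pig 3, with MLANA called each time.

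**Figure D1:**
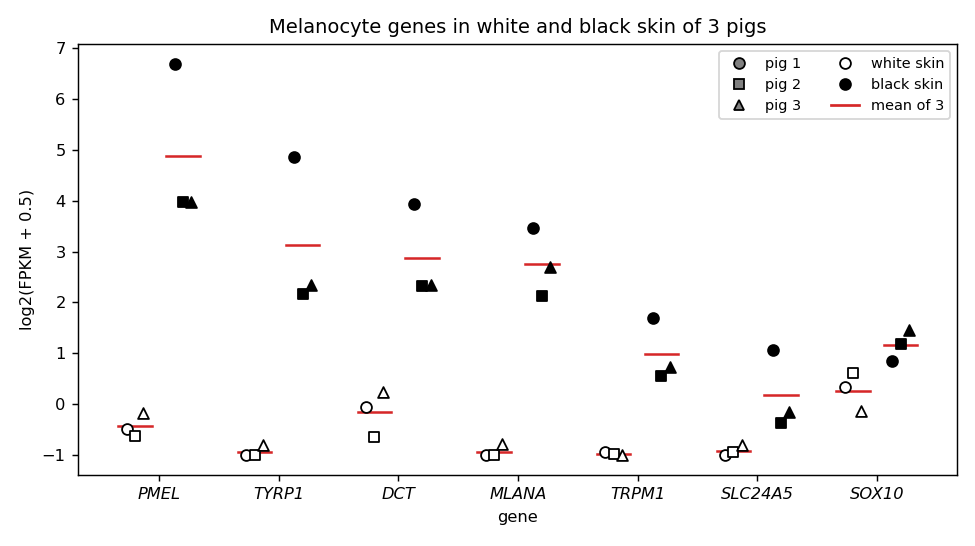
Level of each gene as log2(FPKM + 0.5) in the 3 white (open) and 3 black (filled) samples, with a marker shape for each pig and a red line at the mean of 3. The black samples lie above the white samples for each gene, pig 1 is the highest black sample for 6 genes and the lowest for SOX10, and the white samples of SOX10 lie closest to the black ones.

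The strongest signal was that of PMEL. It stood at 103, 15.2 and 15.2 FPKM in the black skin of pigs 1, 2 and 3, and at 0.215, 0.151 and 0.391 in their white skin. Even the lowest black sample was 38.9-fold above the highest white sample. The log2 fold change was 5.30 ± 0.68 (standard error; limma, adjusted p = 0.0121), the largest increase in black skin among the 14900 mRNAs. In the black skin of pig 1, PMEL ranked above 96.8% of the mRNAs, against 74.3% and 73.3% in pigs 2 and 3 and at most 8.65% in white skin.

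The melanosomal enzymes TYRP1 and DCT differed in how far they fell in white skin. TYRP1 was at 28.5, 3.97 and 4.60 FPKM in the black skin of pigs 1, 2 and 3, while in white skin it was listed at 0 in pigs 1 and 2 and at 0.0718 in pig 3. Its log2 fold change was 4.06 ± 0.66 (standard error; limma, adjusted p = 0.0199). DCT was at 14.8, 4.53 and 4.60 FPKM in black skin and kept a signal in each white sample, at 0.459, 0.139 and 0.688. The log2 fold change of DCT was 3.02 ± 0.48 (standard error; limma, adjusted p = 0.0190), and its lowest black sample was 6.58-fold above its highest white sample, less than the 55.3-fold of TYRP1.

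MLANA was the most even of the pigment genes between pigs. It was at 10.5, 3.84 and 5.97 FPKM in the black skin of pigs 1, 2 and 3, and in white skin it was listed at 0 in pigs 1 and 2 and at 0.0816 in pig 3. The log2 fold change was 3.68 in limma (adjusted p = 0.00780), with a standard error of 0.37 that was below those of PMEL, TYRP1 and DCT. MLANA therefore held rank 15 by p over all mRNAs, where PMEL held rank 63. The channel gene TRPM1 was lower throughout, at 2.74, 0.978 and 1.16 FPKM in black skin and at 0.0200, 0.00837 and 0 in white skin (limma, log2 fold change 1.97 ± 0.35 standard error, adjusted p = 0.0241). Where white levels are this low the added 0.5 shrinks the change. With a pseudocount of 0.1 the log2 fold change was 3.85 for TRPM1, 5.70 for MLANA and 6.09 for TYRP1.

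SLC24A5 was the weakest of the pigment genes and was not called. In black skin it was at 1.60, 0.279 and 0.397 FPKM in pigs 1, 2 and 3, so only pig 1 was above the 0.5 at which the authors took an mRNA as expressed. In white skin it was listed at 0, 0.0244 and 0.0711. The groups did not overlap, but the log2 fold change of 1.10 had a 95% interval of 0.18 to 2.01 (adjusted p = 0.121 from limma). SOX10 was at 1.29, 1.79 and 2.24 FPKM in the black skin of pigs 1, 2 and 3 and at 0.767, 1.03 and 0.407 in white skin. Its lowest black sample was only 1.26-fold above its highest white sample, and the log2 fold change of 0.89 had a 95% interval of 0.16 to 1.62 (adjusted p = 0.117 from limma). The median log2 fold change of all mRNAs was 0.31 in the same direction. Less that median, the log2 fold change of SOX10 was 0.59 and that of SLC24A5 0.79, against 3.38 for MLANA and 1.66 for TRPM1. With quantile normalization, which brings the median to 0.03, the log2 fold change of SOX10 was 0.49.

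**Figure D2:**
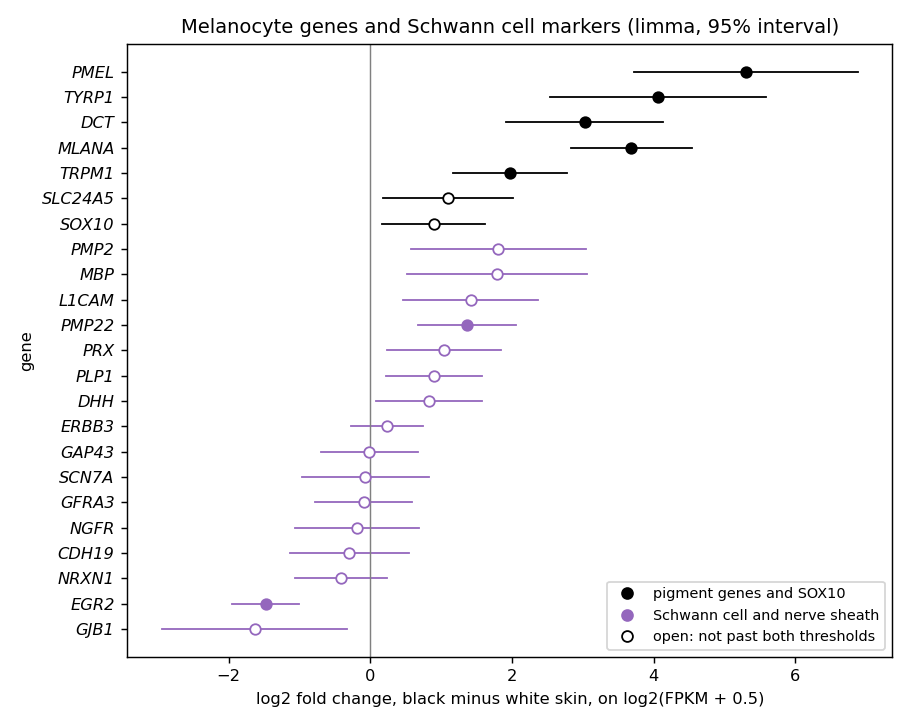
Log2 fold change, black minus white skin on log2(FPKM + 0.5), with its 95% interval from limma, for the 7 genes (black) and Schwann cell and nerve sheath markers (purple, 1 of the 17 not shown); filled points passed both thresholds. PMEL, TYRP1, DCT, MLANA and TRPM1 lie from 1.97 to 5.30, SOX10 lies at 0.89, and the median of the markers is 0.24.

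Because bulk skin was sequenced, fewer melanocytes and less RNA per melanocyte cannot be told apart as sources of a lower level. To ask whether the pigment genes changed more than SOX10, the log2 ratio of each gene to SOX10, with 0.5 added to both, was compared between the skins. This ratio was higher in black skin by 4.41 for PMEL, 3.17 for TYRP1, 2.79 for MLANA, 2.13 for DCT and 1.08 for TRPM1 in log2 units, with no overlap between the 3 white and 3 black samples for any of the 5. Each exact permutation test (two-sided) gave p = 0.1, the smallest that 3 samples against 3 allow, and 0.12 after adjustment over the 6 genes tested. For SLC24A5 the difference was 0.21 and the samples overlapped (exact permutation test, p = 1), and without the black sample of pig 1 the sign turned to -0.40. The values of all 6 genes depended on the amount added. With 0.1 added in place of 0.5 the difference was 5.20 for PMEL, 4.88 for TYRP1, 4.49 for MLANA and 2.65 for DCT. It was then 2.64 for TRPM1 and 1.20 for SLC24A5. With 1 added it was 3.91 for PMEL, 2.52 for TYRP1, 2.15 for MLANA and 1.80 for DCT. For TRPM1 and SLC24A5 it was then 0.64 and 0.015. With 1 added the samples of TRPM1 overlapped as well (exact permutation test, p = 0.3). The design cannot reach 0.05 in these tests.

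Within black skin the genes kept a similar order of level. PMEL was the highest of the 7 in each pig and held 63.4%, 49.7% and 44.5% of their summed FPKM in pigs 1, 2 and 3. TYRP1, DCT and MLANA followed at ranks 2 to 4 in each pig but changed places. Their ratios straddled 1, with TYRP1 to DCT at 1.93, 0.878 and 1.00 and DCT to MLANA at 1.41, 1.18 and 0.771 in pigs 1, 2 and 3, so these 3 genes did not differ from each other beyond the spread between pigs. TRPM1, SLC24A5 and SOX10 held the last ranks in each black sample. SLC24A5 was below TRPM1 in each of the 3 pigs, with a TRPM1 to SLC24A5 ratio of 1.71 to 3.51.

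Some pairs of genes kept a near constant ratio although both varied between pigs. The pairs with the smallest spread of all are given first, picked after the ratios were seen. PMEL to TYRP1 was 3.61, 3.82 and 3.30 in the black skin of pigs 1, 2 and 3, a spread of 1.16-fold, while PMEL alone spread 6.78-fold. MLANA to TRPM1 lay between 3.83 and 5.14, a spread of 1.34-fold, and DCT to TRPM1 between 3.96 and 5.39, a spread of 1.36-fold. All other pairs spread more, among them TYRP1 to SLC24A5 by 1.54-fold, PMEL to SLC24A5 by 1.68-fold and DCT to MLANA by 1.83-fold. PMEL to DCT was 6.97 in pig 1 and 3.35 and 3.30 in pigs 2 and 3, and PMEL to MLANA was 9.81, 3.95 and 2.55. The ratios are from 3 libraries and carry no test.

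**Figure D3:**
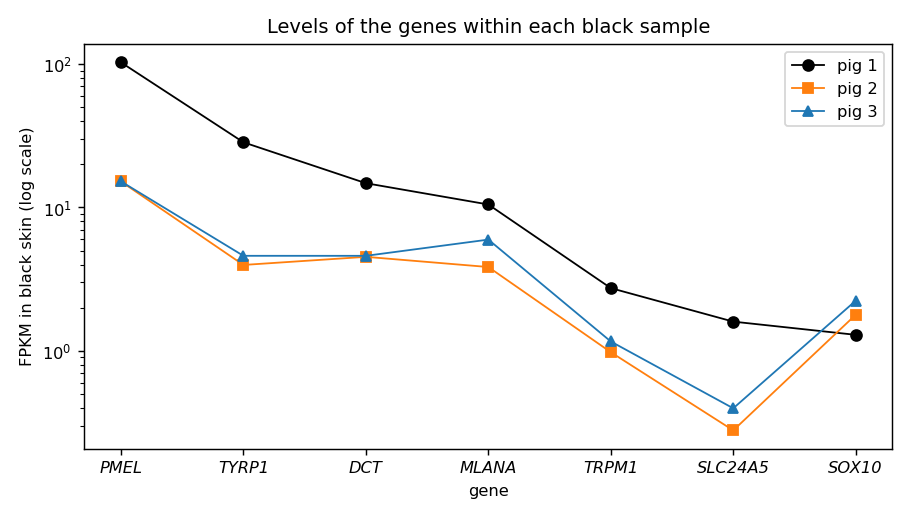
FPKM of the 7 genes on a log axis within each black sample, 1 line for each pig. The lines of pigs 2 and 3 run close together, pig 1 lies above them for the 6 pigment genes, and SOX10 crosses to the lowest position in pig 1, at 1.29 against 1.79 and 2.24.

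Pig 1 had the highest black sample for all 6 pigment genes, where 22.6% of all mRNAs were highest in that sample among the black ones. Its level over the mean of pigs 2 and 3 was 6.77-fold for PMEL, 6.65-fold for TYRP1, 4.73-fold for SLC24A5, 3.24-fold for DCT, 2.56-fold for TRPM1 and 2.14-fold for MLANA. For SOX10 it was 0.643-fold, below the median over all mRNAs of 0.840-fold and at percentile 26.2 of them. The ratio of PMEL to SOX10 was accordingly 79.6 in pig 1 and 8.50 and 6.79 in pigs 2 and 3. The order of the pigment genes by this fold was not their order by level, since MLANA was more abundant than SLC24A5 but varied less.

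Hair genes moved with the pigment genes in that sample. Of 15 markers of the hair shaft and its inner root sheath in the table, all were highest in the black skin of pig 1, with a median of 26.3-fold over the mean of pigs 2 and 3. KRT71, a keratin of the inner root sheath, stood at 2723, 160.3 and 47.0 FPKM in the black skin of pigs 1, 2 and 3 and at 40.9, 0.0275 and 21.8 in white skin. KRT25, a keratin of the same layer, was at 4866, 209.0 and 110.6 in black skin and at 90.6, 0.0352 and 59.1 in white skin. The summed FPKM of the 15 markers was 9.86 to 271.1 in white skin and 340.6 to 14298 in black skin. KRT27, KRT72, KRT73, KRT35 and KRT82 were listed at 0 in the white skin of pig 2, and KRT73 also in that of pig 3. None of the 15 was called by limma without the pig in the model, although 8 had an unadjusted p under 0.05. At least 2979 of 14900 mRNAs did so in that fit, the rank by p of SLC24A5 (limma, unadjusted p = 0.0242). With the pig as a block, 7 of the 15 were called higher in black skin. Of all 14900 mRNAs, 957 were called higher and 482 lower in black skin with that block, against 539 and 391 without it. Without the black sample of pig 1, the log2 fold changes were 4.40 for PMEL, 3.19 for TYRP1, 2.49 for DCT, 3.33 for MLANA and 1.62 for TRPM1, and all 5 were still called (adjusted p of 0.0107 to 0.0301 from limma). The part of the hair follicle in the level of the pigment genes was not tested.

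**Figure D4:**
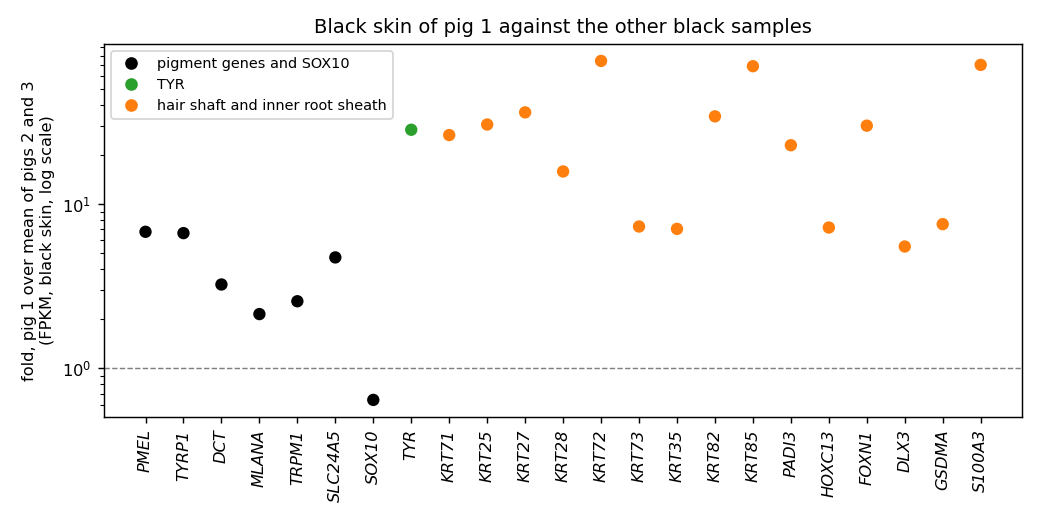
Fold of the black sample of pig 1 over the mean of the black samples of pigs 2 and 3 in FPKM, on a log axis, for the 7 genes (black), TYR (green) and the 15 hair shaft and inner root sheath markers in the table (orange); the dashed line marks 1. The 6 pigment genes lie from 2.14 to 6.77, SOX10 at 0.643, and TYR at 28.3 lies among the hair markers.

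In white skin SOX10 took the place that PMEL held in black skin in 2 of the 3 pigs. It was the highest of the 7 in pigs 1 and 2, with 52.5% and 76.1% of their summed FPKM, and came after DCT in pig 3, where DCT held 40.2% and SOX10 23.8%. In black skin SOX10 held 0.797% to 6.55%. The summed FPKM of the 6 pigment genes was 0.905, 0.313 and 3.20 times that of SOX10 in the white skin of pigs 1, 2 and 3, against 124.5, 16.1 and 14.3 times in black skin.

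Residual signal in white skin differed between the genes and the pigs. Only PMEL, DCT and SOX10 were above 0 in all 3 white samples. The mean white level was 0.568% of the mean black level for PMEL, 5.38% for DCT and 41.4% for SOX10. As pig 1 dominates the black mean, the values without its black sample were 1.66% for PMEL and 9.39% for DCT. Within pigs 1, 2 and 3 the white level as a percent of the black level was 0.209%, 0.996% and 2.57% for PMEL, 3.11%, 3.06% and 14.95% for DCT, and 59.3%, 57.7% and 18.2% for SOX10. Thus PMEL and DCT kept most in pig 3 and SOX10 kept least there. The white skin of pig 3 was also the only white sample in which TYRP1 and MLANA were listed above 0, and it was the highest white sample for 5 of the 6 pigment genes, where 44.2% of all mRNAs were highest in it. TRPM1 was the exception and was listed at 0 in that sample. The PMEL to DCT ratio in white skin was 0.468, 1.09 and 0.568 in pigs 1, 2 and 3, below each ratio of black skin.

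**Figure D5:**
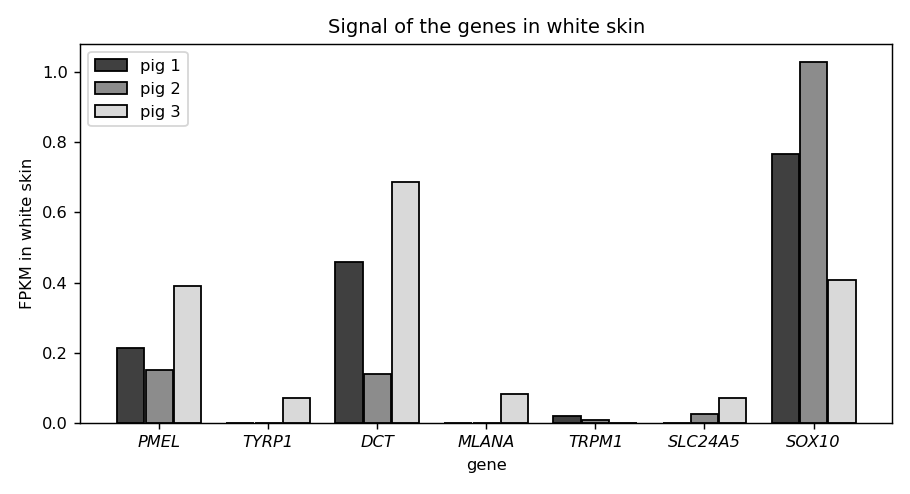
FPKM of the 7 genes in the white skin of pigs 1, 2 and 3, on a linear axis from 0. SOX10 reaches 1.03 in pig 2, DCT reaches 0.688 in pig 3, and TYRP1 and MLANA are above 0 in pig 3 alone.

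Reads of neighbouring genes were a further point for such low values. Of the 7 genes, PMEL shares 4 bases with DGKA and lies 114 bases from CDK2, and SLC24A5 overlaps MYEF2 over 7803 bases, while no other coding gene of RefSeq overlaps the other 5. CDK2, a kinase of the cell cycle, was at 37.1 to 46.2 FPKM in white and 46.7 to 55.3 in black skin (adjusted p = 0.347 from limma). DGKA, a lipid kinase, was at 3.94, 3.43 and 5.51 FPKM in white skin and at 8.67, 10.4 and 8.69 in black skin (limma, adjusted p = 0.0535, log2 fold change 1.04). MYEF2 was at 0.722 to 1.03 FPKM in white and 1.04 to 1.76 in black skin. POLR2F, the coding gene nearest to SOX10 at 3613 bases, was at 58.1 to 81.6 FPKM in white and 56.8 to 71.3 in black skin (adjusted p = 0.706 from limma). The part of neighbouring genes in the residual levels was not tested. These neighbours were chosen by position, within 60 kb of a member.

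Of 18 further genes of pigment and melanocytes looked for, 13 were in the table. KIT was called higher in black skin, and the other 12 did not pass, with a median log2 fold change over the 13 of 0.54. Of all mRNAs, 3.62% were called higher in black skin. KIT, the receptor that melanocytes and mast cells need for survival, was at 2.41, 3.24 and 2.90 FPKM in the black skin of pigs 1, 2 and 3 and at 0.794, 1.03 and 0.440 in white skin (limma, adjusted p = 0.0329, log2 fold change 1.44). KIT was not called with quantile normalization or when any sample other than the black sample of pig 1 was left out. Like SOX10, and unlike the 6 pigment genes, it had its lowest black sample in pig 1 and its highest white sample in pig 2. MITF, the transcription factor that controls the pigment genes, was at 16.2, 8.27 and 15.7 FPKM in black skin and at 5.06, 4.82 and 6.67 in white skin. It did not pass without the pig in the model (limma, adjusted p = 0.0640, log2 fold change 1.16) but was called once the pig entered as a block (adjusted p = 0.0440). GPNMB, a relative of PMEL that macrophages also express, was at 156.8, 31.8 and 226.5 FPKM in black skin and at 29.3, 10.7 and 46.1 in white skin, and was called only in the model with a pig block (limma, adjusted p of 0.126 without the block and 0.0145 with it). The melanosome transport gene MYO5A was at 26.5 to 32.8 FPKM in black skin and 32.8 to 36.6 in white skin, and HPS4 at 12.1 to 17.9 and 5.96 to 11.0, and neither passed (adjusted p = 0.548 and 0.118 from limma).

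TYR, the enzyme that starts melanin synthesis, is named here after its values were seen. It was listed at 0 in all 3 white samples and at 6.93, 0.490 and 0 FPKM in the black skin of pigs 1, 2 and 3. Its 28.3-fold excess in pig 1 over the mean of the other black samples was above that of each of the 7 genes. The black skin of pig 3, where TYR was listed at 0, held PMEL at 15.2 FPKM, as much as pig 2. TYR was not called (adjusted p = 0.248 from limma).

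Schwann cell markers were read beside SOX10 because these cells also express it. Of 18 markers 17 were in the table and none was listed at 0 in any sample, so that each white sample held nerve sheath genes. Their summed FPKM was 109.1 to 128.6 in white skin and 143.2 to 224.4 in black skin. PMP22, a myelin protein that other skin cells also express, was called higher in black skin, with 32.7, 36.6 and 44.1 FPKM in the white skin of pigs 1, 2 and 3 and 65.9, 95.8 and 144.4 in black skin (limma, adjusted p = 0.0412, log2 fold change 1.36). EGR2, a transcription factor of myelinating cells that is found in hair follicles too, was called lower in black skin, at 36.7, 35.6 and 43.5 FPKM in white and 15.1, 12.9 and 12.5 in black skin (limma, adjusted p = 0.0130, log2 fold change -1.48). EGR2 lost its call only without the white sample of pig 2, among the 14 alternatives run. PMP22 lost its call with upper-quartile scaling, in limma without the trend and when any sample other than the black sample of pig 1 was left out. The other 15 did not pass, and the median log2 fold change of the 17 was 0.24, against 0.31 over all mRNAs. In that fit 3.62% of all mRNAs were called higher and 2.62% lower in black skin.

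With the pig as a block, 4 of the 17 markers were called higher and 1 lower in black skin, and the added calls included MBP and PMP2, proteins of the myelin sheath named here after their values were seen. Of all 14900 mRNAs, the block gave 957 calls higher and 482 lower in black skin. The white order of SOX10, with pig 2 above pig 1 above pig 3, was shared by 6 of the 17 markers (35.3%) and by 17.9% of all mRNAs, and 9 of the 17 (52.9%) were lowest in pig 1 among the black samples, as were 44.0% of all mRNAs. ERBB3, a receptor that Schwann cells share with melanocytes and keratinocytes, was at 15.3 to 19.1 FPKM in white and 17.7 to 24.1 in black skin (adjusted p = 0.501 from limma). The part of nerve cells in the level of SOX10 was not tested.

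Gland epithelium is the other known site of SOX10 in skin. Of 10 gland markers in the table, 1 was called, the simple epithelial keratin KRT8, at 6.95 to 17.1 FPKM in white and 22.5 to 34.5 in black skin (adjusted p = 0.0469 from limma), a call that held in 6 of 14 alternatives and, of the samples left out in turn, only without the white sample of pig 3. Of all mRNAs, 3.62% were called higher in black skin. The summed FPKM of the 10 was 60.7 to 125.6 in white skin and 113.4 to 142.9 in black skin, which overlapped. KRT77 was listed at 0 in the white skin of pig 2. KRT7 was at 10.7, 19.8 and 47.3 FPKM in the white skin of pigs 1, 2 and 3 and at 4.71, 49.8 and 31.3 in black skin. ELF5 was at 76.0 FPKM in the black skin of pig 1 and at 1.93 to 5.22 in the other 5 samples, the sample in which the hair genes were highest. The white sample lowest in SOX10, that of pig 3, was the highest white sample for 7 of the 10 markers (70%) and for 44.2% of all mRNAs. It was also the highest for 8 of 11 epidermal and all 6 adipocyte markers. The part of gland cells in the level of SOX10 was not tested.

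Markers of other cell types also moved with skin color. Of 6 adipocyte markers 5 were called higher in black skin, with a summed FPKM of 144.0 to 513.6 in white and 808.2 to 1890 in black skin. Of 10 fibroblast markers 3 were called, DCN, FBLN1 and COL6A3, with sums of 2438 to 5045 and 6416 to 10604, and of 4 endothelial markers 3 were called, PECAM1, CDH5 and KDR, with sums of 29.1 to 33.6 and 73.2 to 155.5. CD68 was the 1 called of 7 immune markers, which summed to 17.0 to 44.5 in white and 45.4 to 114.0 in black skin. In the same fit, 3.62% of all mRNAs were called higher and 2.62% lower in black skin. CKM, an enzyme of muscle, was lower in black skin, at 28.0 to 66.2 FPKM in white and at most 4.66 in black skin (adjusted p = 0.0107 from limma), while the other muscle marker in the table, ACTA1, was at 0.0298 to 1.77 and 0.0123 to 0.349. CKM kept its call in all 14 alternatives, and the 11 calls of adipocyte, fibroblast and endothelial markers were each lost without the white sample of pig 1, and also without that of pig 2. With upper-quartile scaling 2 adipocyte, 2 fibroblast and 2 endothelial markers were called. With quantile normalization these counts were 4, 4 and 1. CD68 was called under neither scaling. In the model with a pig block, 5 adipocyte, 5 fibroblast, 4 endothelial and 4 immune markers were called higher in black skin. That model called 957 of all 14900 mRNAs higher and 482 lower in black skin. None of 11 epidermal markers was called by limma. Of them 3 had an unadjusted p under 0.05, as had at least 2979 of all 14900 mRNAs. The part of this difference in cell makeup in the levels of the 7 genes was not tested.

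The mRNAs with the most similar profile were sought over all 6 samples, as the smallest root-mean-square difference in log2(FPKM + 0.5) after each gene's own mean was taken off. The mean profile of the 6 pigment genes was nearest to PROCR (0.48), a receptor of protein C on endothelium and other cells, which stood at 2.39, 1.37 and 2.63 FPKM in the white skin of pigs 1, 2 and 3 and at 30.3, 5.94 and 11.3 in black skin. AP3M1 (0.58), a subunit of the AP-3 adaptor that carries cargo to melanosomes and lysosomes, came next, with 1.60, 1.11 and 2.59 FPKM in white skin and 15.5, 12.8 and 12.5 in black skin. SPP1, the secreted protein osteopontin, followed (0.64) after ENSSSCG00000017643 (0.60) and ENSSSCG00000035144 (0.60), for which no symbol was given. For comparison, DCT lay 0.21, MLANA 0.35 and PMEL 1.11 from the mean of which they are part. SOX10 was nearest to TGFBRAP1 (0.06), PRPF8 (0.10), HECTD4 (0.11), TMEM120B (0.11) and SNX9 (0.11). None of these 5 was called, and TGFBRAP1, the nearest, stood at 4.27, 5.52 and 2.85 FPKM in white and 6.81, 8.45 and 9.30 in black skin.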

How the data were processed

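RNA-seq was run on poly(A) RNA of 3 white and 3 black skin samples from 3 pigs. The deposited values are FPKM per mRNA and per lncRNA, which the authors calculated with StringTie (1.3.3) from strand-specific libraries aligned to Sscrofa11.1. The paper names TopHat as the aligner and the submitters' processing notes list HISAT2 (2.0.4), so the aligner is uncertain. An mRNA counted as expressed for the authors when any sample exceeded 0.5, which all 14900 listed mRNAs did. All 6 columns of both tables were used.

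Symbols came from a gene name table for 12236 of 14900 mRNAs (82.1%), and positions from RefSeq. The 7 genes and the 10 marker lists were chosen with earlier results of these data known. Named genes are the 7, list genes that were called, the 4 most abundant of each list, and the 5 nearest profiles. Black and white skin were compared with limma 3.58.1 (trend) in R 4.3.3 on log2(FPKM + 0.5), without the pig, by code tested on simulated data; the study used Cuffdiff. The titles pair the skins by pig. Both skins of a pig departed from their group means together (r across genes of 0.208, 0.360 and 0.204 for pigs 1, 2 and 3), so a model with a pig block was also run. Single ratios were tested by exact permutation in SciPy 1.17.1, and by sign flips within pigs. Promoter sequence was not analysed here, and 1 nerve sheath marker is counted in its list but not reported by itself.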

Additional observations from a re-analysis of the deposited data

Results flagged for a closer look

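The lncRNA table, which the comparisons above do not use, holds 3 lncRNAs within 100 kb of the 7 genes, and 2 of them had a mean FPKM in black skin above the highest white sample. TCONS_00007643, which lies 85314 bases from TRPM1, had a mean of 0.237 in black skin, with 0, 0.101 and 0.609 in pigs 1, 2 and 3, against 0, 0 and 0.160 in white skin. TCONS_00001962, which lies 40562 bases from SLC24A5, had a mean of 0.235 in black skin, with 0.175, 0.529 and 0 in pigs 1, 2 and 3, and was listed at 0 in each white sample. TCONS_00077379, which lies 28777 bases from SOX10, was at 0.921 in the white skin of pig 3 and 0 in every other sample. Its locus spans only 38 bases, and FPKM is per kilobase of transcript, so few fragments can give that level. None of the 3 followed the high level of the pigment genes in pig 1. No white sample or black sample was tested as an outlier, because each skin has 3 samples.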

How the results depend on the processing

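The 5 calls among the 7 genes were the same with pseudocounts of 0.1 and 1, the pig as a replicate block (5 calls), the 3 scalings and limma without the trend; a mean FPKM above 1 left TRPM1 and SLC24A5 untested and gave 4. Leaving out 1 sample gave 1 to 5 calls, 4 without the black sample of pig 3. Over the whole table, 930 mRNAs were called, 1439 with the replicate block and 35 to 847 with a sample left out, the lowest without the white sample of pig 2. Among the 95 marker genes measured, 17 were called, 35 with the replicate block, 9 with upper-quartile scaling and 1 to 11 with a sample left out. The block changed no call among the 7. The log2 fold changes of all 7 stayed positive in every setting, with SOX10 at 0.49 to 1.21 (adjusted p of 0.0997 to 0.426 from limma) and SLC24A5 at 0.65 to 2.41 (0.0785 to 0.287).

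With samples left out, the mean log2 ratio of TYRP1 to DCT in black skin went from 0.25 to between -0.094 and 0.47, that of DCT to MLANA from 0.12 to between -0.070 and 0.36, and that of SOX10 to TRPM1 from 0.24 to between -0.11 and 0.91. The change of SLC24A5 less that of SOX10 went from 0.21 to between -0.40 and 0.52 in the same way. The median white over the median black level was 1.41% for PMEL and 9.98% for DCT. Without counts, no upper limit can be given for a level listed at 0.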
